A study of Mus musculus with 9 samples.

Results

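The wild-type placebo mouse brain libraries gave a baseline of the transcriptome: which genes were most abundant, which cell types the transcripts point to, which transcript of a gene carried its counts, and which genes varied between samples beyond counting noise. The members were chosen by group, as the 3 of 9 samples of the series whose genotype is WT and whose treatment is placebo, and they are also the samples whose values are whole-number read counts. The remaining samples are of a genotype labelled TG, with placebo or NM-101, and were not used. The series concerns alpha-synuclein made by neurons and its effect on oligodendrocytes. The labels give the tissue as brain and the cell type as oligodendrocyte. They name no brain region, age, sex or strain. Nor do they tell whether each sample is a different animal, and every p-value below reflects sample-to-sample spread that may be technical. Total RNA was purified with a kit meant for formalin-fixed, paraffin-embedded tissue and sequenced as QuantSeq libraries, a method that counts transcripts at their 3′ end.

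As background, brain tissue holds neurons, which signal at synapses, and glia. Oligodendrocytes wrap axons in myelin, a membrane rich in the protein encoded by Mbp. Astrocytes clear glutamate and supply metabolites, and microglia are the resident immune cells. The choroid plexus, an epithelium in the ventricles, makes cerebrospinal fluid, and ependymal cells line the ventricles. A piece of brain that holds or lacks such a structure differs in its marker transcripts.

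The libraries, here called WT 1, WT 2 and WT 3, held 10612290, 14041951 and 11774367 counts. The 33299 RefSeq rows were summed to 23798 genes, of which 13277 reached 1 CPM (counts per 1000000 library counts) in every library and 5869 had no count in any. Protein-coding genes took 98.6% of the counts on average and long non-coding RNAs 0.808%. Libraries were compared on log2 of CPM plus 1, across the 13829 genes with a mean of at least 1 CPM. Pearson's r was 0.983 for WT 1 and WT 2, 0.985 for WT 1 and WT 3, and 0.988 for WT 2 and WT 3. This is a description across genes, which are not independent replicates. In the same order, 223, 210 and 163 genes differed at least 2-fold in CPM plus 1, a scale that shrinks differences at low levels. A count of 0 allows up to 0.283, 0.214 and 0.255 CPM in WT 1, WT 2 and WT 3 (3 counts, counting error only). The Y-linked gene Ddx3y stood at 104.2, 109.8 and 96.8 CPM, and the X-inactivation RNA Xist at 0.47, 0.071 and 0.085 CPM.

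The 10 most abundant genes of each library held 4.77%, 5.01% and 4.81% of its counts, the top 100 held 17.4%, 17.2% and 17.5%, and the top 1000 held 50.3%, 50.5% and 51.1%. No mitochondrially encoded gene is among the named rows, so these shares and the ranks below leave such genes out. Of the genes measured, Lars2, a mitochondrial leucyl-tRNA synthetase, led at 14422, 16344 and 11743 CPM. The myelin gene Mbp followed at 4097, 3395 and 5571 CPM, lowest in WT 2 and highest in WT 3. Fth1, the ferritin heavy chain that stores iron, stood at 3655, 3525 and 4738 CPM. Camk2a, a kinase of excitatory synapses, stood at 4088, 3815 and 4013 CPM, within 1.07-fold across the libraries. Kif5a, a motor that carries cargo along axons, stood at 2989 CPM in WT 1 against 4510 and 4415 CPM in WT 2 and WT 3. The astrocyte genes Slc1a2, a glutamate transporter, and Glul, which makes glutamine from glutamate, had means of 3641 ± 308 and 2432 ± 120 CPM (SD, n = 3).

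Cpe, which trims peptide hormones, was the steadiest of the 25 most abundant genes by its coefficient of variation, the SD as a percentage of the mean, at 1.14% after scaling. Its levels were 3542, 3524 and 3541 CPM. Norad, a non-coding RNA that sequesters Pumilio proteins, was nearly as even, at 2568, 2536 and 2567 CPM. Calm2 and Calm3, which encode the same calcium sensor, had means of 2334 ± 100 and 2020 ± 152 CPM (SD, n = 3). Snap25, a core protein of synaptic vesicle fusion, stood at 2729, 2896 and 2964 CPM.

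**Figure D1:**
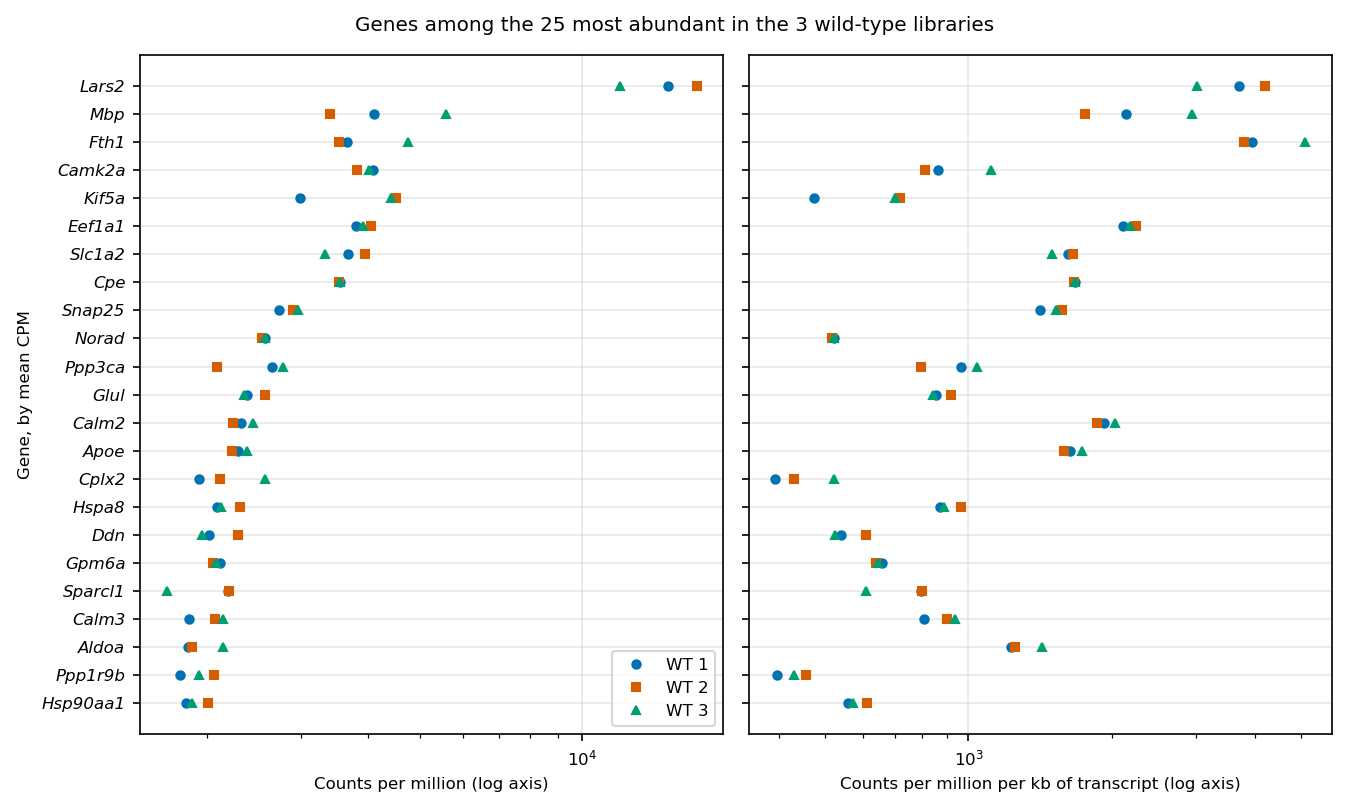
Genes among the 25 most abundant by mean CPM, with each library as a point, in CPM (left) and in CPM per kilobase of transcript (right), both on log axes. Lars2 lies far to the right in CPM, the points of Cpe and Norad nearly coincide, and Mbp is lowest in WT 2.

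Levels of different genes were also given per length, as CPM per kilobase of transcript (RPKM), for the 22512 genes with a length. Counts depended weakly on length: over 9550 single-transcript genes of at least 1 CPM, log2 CPM rose by 0.19 on the log2 scale for each 2-fold greater length, with r of 0.085 across genes. Dividing by length therefore places short transcripts higher, and for these 3′ end counts the RPKM ranks partly reflect length rather than level. Fth1 led the RPKM scale at 4276 ± 717 (SD, n = 3), followed by Lars2 at 3639 ± 593, the actin-binding Tmsb4x at 2303 ± 236 and Mbp at 2283 ± 604 RPKM. Several ribosomal protein genes were among the 25 highest by RPKM and not among the 25 highest by CPM. Rplp1, of the ribosomal stalk, ranked 110 by CPM and 8 by RPKM, and Rps29, of the small subunit, ranked 200 and 12. Rpl41 and the near-identical locus Gm15772 held almost the same counts in each library, at 5768 and 5697 in WT 1, 10175 and 9877 in WT 2, and 7977 and 8098 in WT 3, and the level of each alone is uncertain.

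Cell type content was read from marker lists, as the sum of the CPM of all measured members in each library. In bulk samples, fewer cells of a type and less RNA per cell cannot be told apart. The neuronal and astrocyte lists gave the largest sums of the cell type lists, in samples whose label is oligodendrocyte, and each varied by at most 1.06-fold between the libraries. The 24 measured general neuron markers summed to 18384, 17946 and 18830 CPM, and the 26 astrocyte markers to 17113, 17615 and 16575 CPM. The astrocyte list includes Cpe, the steady peptide-trimming gene described above, at a mean of 3536 CPM. The 38 markers of mature oligodendrocytes and myelin summed to 12320, 8784 and 13614 CPM. The median level of the neuron list was 603 CPM, that of the astrocyte list 197 CPM and that of the oligodendrocyte list 83.6 CPM. On the per-length scale, which favours short transcripts, these medians were 244, 75.7 and 32.5 RPKM. The lists hold different genes, and their medians do not measure shares of cells. The defining oligodendrocyte markers were present in every library: Sox10, which drives their fate, stood at 34.7, 35.9 and 32.9 CPM, and Olig2, of the whole lineage, at 27.1, 26.8 and 35.9 CPM.

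**Figure D2:**
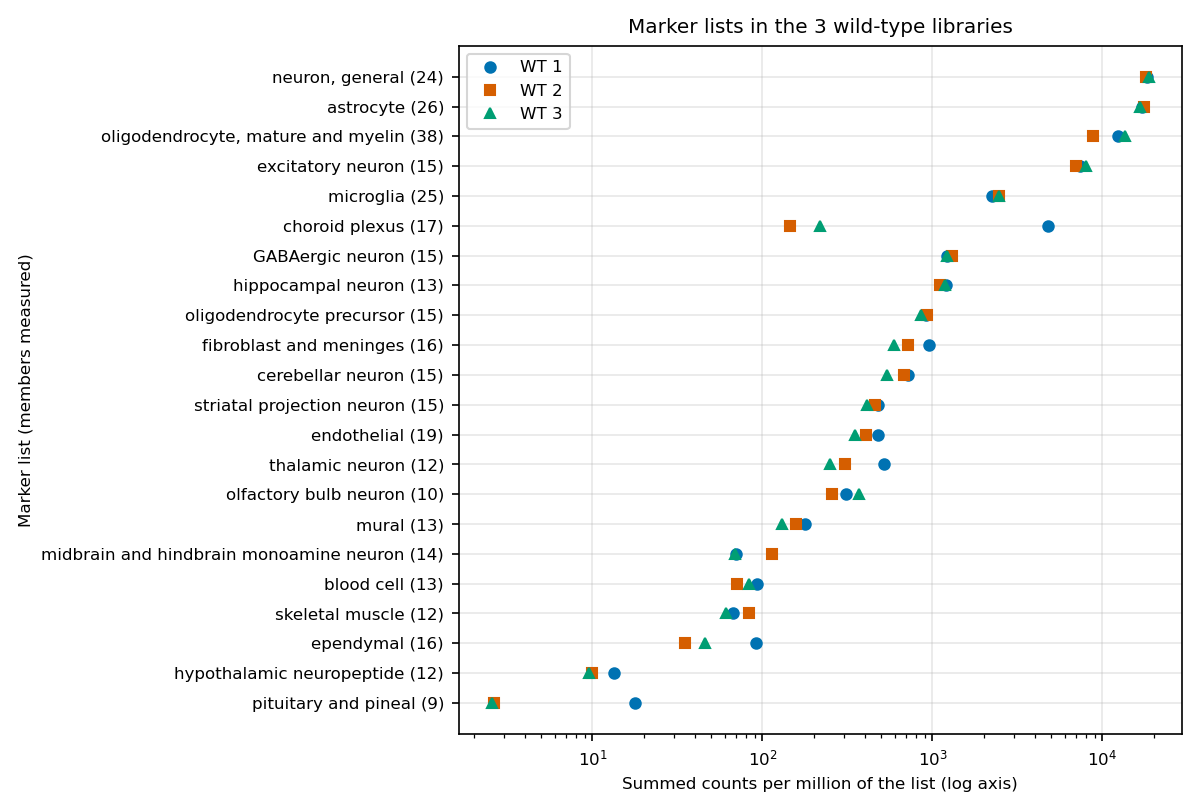
Summed CPM (log axis) of each of 22 cell type marker lists, with each library as a point and the number of measured members in brackets. The choroid plexus list stands at 4767 CPM in WT 1 against 145 and 218 CPM in the others, and the neuron and astrocyte points nearly coincide.

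Spread between libraries was tested for each gene in 2 ways with edgeR, with Benjamini-Hochberg adjustment at 0.05. The first asks whether a gene varied more than read counting alone allows, and 6222 of 13829 genes (45.0%) did. The second asks whether it varied more than genes of its abundance usually do, that is, above the fitted dispersion trend, and 197 (1.42%) did, with 802 at an unadjusted p under 0.05. The share that passed the first test grew with abundance: 26.1% of genes at 1 to 10 CPM passed, 44.5% at 10 to 100 CPM, 78.7% at 100 to 1000 CPM and 98.8% of those above. The median coefficient of variation over all tested genes was 10.7%, and the median of the part beyond counting noise, called the biological coefficient of variation, was 7.94%. At the steady end, 5 genes of at least 300 CPM were named for the smallest biological coefficient of variation. It was estimated as 0 in each, the lowest value it can take, so their order is not a ranking. These genes include Tmod2, which caps actin filaments in neurons, at 682, 675 and 665 CPM. Unc80, of a sodium leak channel complex, is another, at 337, 331 and 334 CPM.

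**Figure D3:**
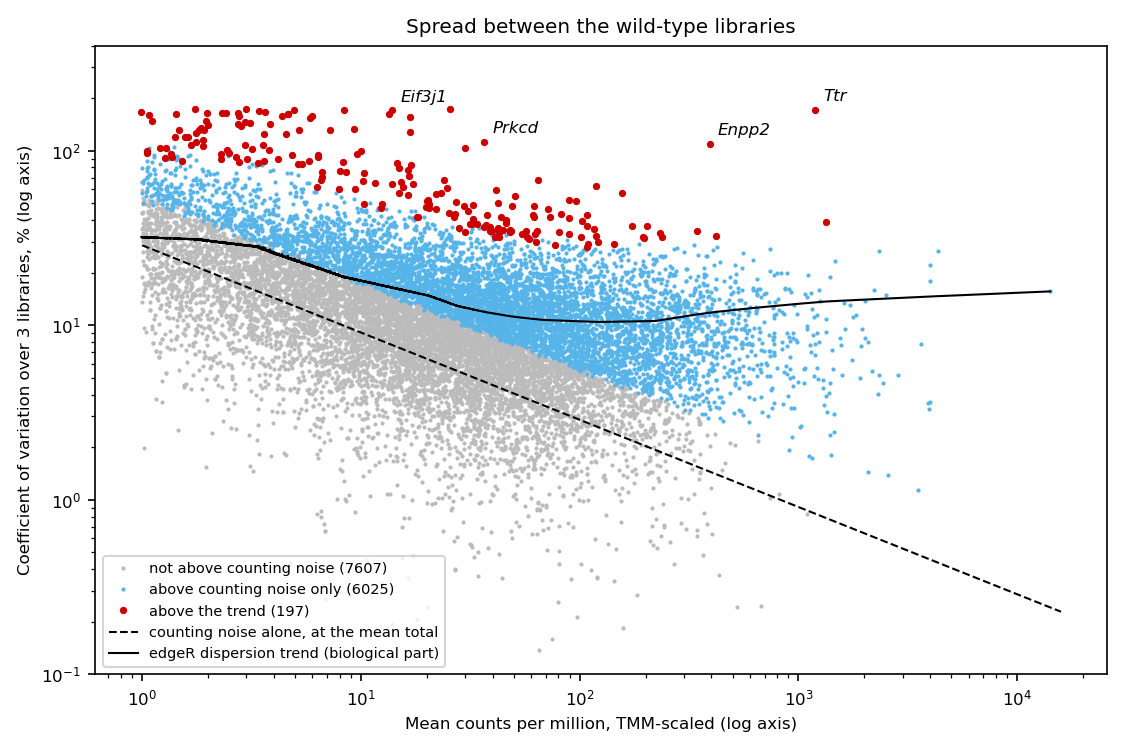
Coefficient of variation over the 3 libraries against mean CPM for each tested gene, both on log axes, with the level counting noise alone would give (dashed) and the edgeR trend (solid). Red marks the 197 genes above the trend, among which Ttr and Enpp2 stand far right.

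Most genes above the trend were highest in WT 1. Of the 197, 114 (57.9%) were highest in WT 1, 40 in WT 2 and 43 in WT 3, against 34.6%, 33.0% and 32.4% of all tested genes. The library that was lowest was WT 2 for 110 of them. For the lowest library the share of all tested genes was not counted, here or for the lists below. When WT 1 was left out, 111 genes were called and 85 of these were among the 197. Without WT 2 or WT 3 the calls numbered 102 and 108. Ttr, Ecrg4, Lbp and 1 RefSeq row without a symbol were called whichever library was left out (Lbp was chosen after its values were seen). Of the 20 genes named for their spread, 7 of 19 tested were called without WT 1, and 17 of 19 tested without WT 2 or without WT 3. These genes were picked for their spread in the same libraries, so the counts are a description.

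Choroid plexus transcripts made up the clearest difference. All 17 listed markers were highest in WT 1, and 17 were above the trend, against 1.42% of all tested genes. Only 5 of the 17 reached 1 CPM in every library and 6 had a mean of 1 CPM without WT 1, so that most entered the test through WT 1 and the count of calls is a description. Ttr, the thyroid hormone and retinol carrier that this epithelium secretes, stood at 3573 CPM in WT 1, 2.78 CPM in WT 2 and 19.9 CPM in WT 3, from 37915, 39 and 234 counts (edgeR, adjusted p = 6.8e-198). WT 1 was thus 1286-fold above WT 2 and 180-fold above WT 3. Enpp2, which makes lysophosphatidic acid and is also a myelin-lineage gene, stood at 898, 122 and 165 CPM (adjusted p = 1.21e-34). Kl, encoding the FGF23 co-receptor Klotho, stood at 66.2, 8.33 and 15.9 CPM. Prlr, the prolactin receptor, stood at 41.9, 4.91 and 3.74 CPM, and the chloride channel family member Clic6 at 39.1, 0.21 and 1.36 CPM. Otx2, a transcription factor of this epithelium, stood at 12.4 CPM in WT 1, had no count in WT 2 and stood at 0.76 CPM in WT 3. Over the 13 members with more than 3 counts in another library, WT 1 exceeded the higher of the others by 4.17-fold to 180-fold, with a median of 10.8-fold.

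WT 2 and WT 3 differed too: Ttr was 7.16-fold higher in WT 3, and without WT 1 it remained above the trend (edgeR, adjusted p = 4.77e-09) as 1 of 6 choroid markers then tested. Without WT 2 or without WT 3, all 17 were called, but both settings keep WT 1, through which most entered the test. These calls are therefore no separate support. Ecrg4, a secreted peptide gene that is not on the list, had the same order, at 47.1, 0.36 and 3.23 CPM (adjusted p = 1.38e-46).

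Ependymal markers were mostly highest in the same library, and markers of the meninges were mixed. The 16 ependymal markers summed to 91.9, 34.9 and 46.0 CPM. Of them, 15 were highest in WT 1 (34.6% of all tested genes were) and 5 were above the trend (1.42% of all). Foxj1, the regulator of motile cilia, stood at 13.4, 2.28 and 3.57 CPM (edgeR, adjusted p = 0.000106), and 8 of the 16 reached 1 CPM in every library. The calls were 3 with the DESeq2 trend, 1 of 11 tested without WT 1 and 1 of 16 without WT 2. Some ependymal markers thus entered the test only through WT 1, and the counts of markers highest there or called are a description. Of 16 fibroblast and meninges markers, summing to 954, 716 and 593 CPM, 8 were highest in WT 1, 5 in WT 2 and 3 in WT 3, and 2 were above the trend, 0 without WT 1. These were Igf2, a growth factor, at 116, 40.5 and 38.0 CPM, and Igfbp2, which binds it, at 70.6, 27.9 and 26.6 CPM. Ptgds, which makes prostaglandin D2 and is the most abundant of that list, stood at 555, 415 and 348 CPM and did not pass. Dcn, the proteoglycan decorin, was highest in WT 2, at 76.4, 118.5 and 67.9 CPM, and did not pass. Gh, growth hormone of the pituitary, stood at 10.2, 0.14 and 0.085 CPM and was above the trend (edgeR, adjusted p = 3.07e-14). Its counts were 108, 2 and 1, so that Gh entered the test through WT 1 and its call is a description. Prl, the pituitary prolactin gene, stood at 2.64 CPM in WT 1 and had no count in the others.

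Thalamic neuron markers were also higher in WT 1. The 12 markers summed to 522, 307 and 250 CPM. Of them, 11 were highest in WT 1 (34.6% of all tested genes were) and 8 were above the trend (1.42% of all). Prkcd, a protein kinase C, stood at 84.7, 8.62 and 17.2 CPM (edgeR, adjusted p = 4.46e-32). Tnnt1, a troponin, stood at 23.7, 2.07 and 2.29 CPM (adjusted p = 3.52e-16), and the Wnt-pathway factor Tcf7l2 at 33.5, 8.62 and 9.00 CPM (adjusted p = 1.51e-07). In each of these, WT 1 stood apart from both other libraries. Slc17a6, the vesicular glutamate transporter of subcortical neurons, was instead low in WT 3, at 53.5, 49.6 and 24.6 CPM. Calb2, the exception in order, was lowest in WT 1, at 30.8, 54.8 and 51.3 CPM, and did not pass. Without WT 1, 1 of the 12 was called. How the choroid, ependymal, surface and thalamic differences relate to each other was not tested. Of the 114 called genes highest in WT 1, 33 are on the choroid, ependymal, thalamic, meningeal or pituitary lists and 81 are on none of them.

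**Figure D4:**
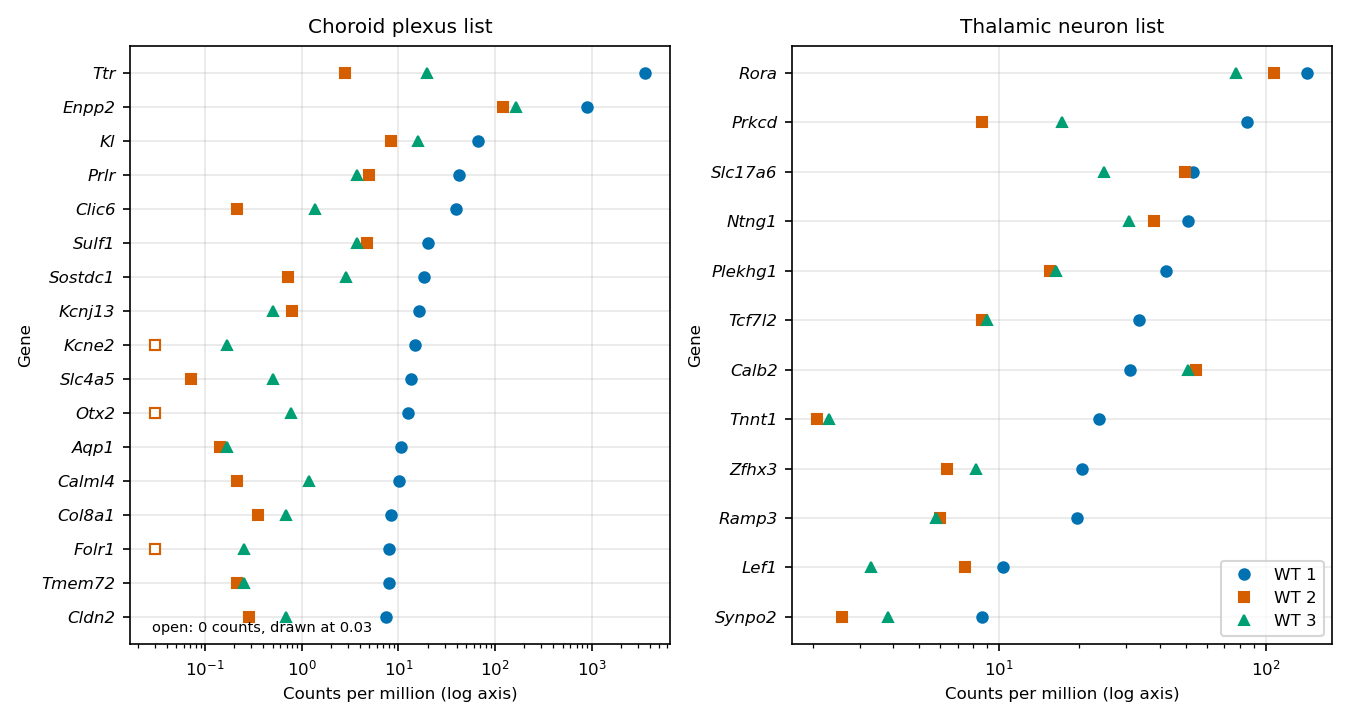
CPM (log axis) of each choroid plexus marker (left) and thalamic neuron marker (right), with each library as a point; open symbols are counts of 0. WT 1 is the highest in all 17 choroid markers and in 11 of 12 thalamic markers, all but Calb2.

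Most myelin and oligodendrocyte genes had their lowest level in WT 2. Of the 38 markers, 33 were lowest in WT 2, for which the share of all tested genes was not counted. Of the 38, 36 varied beyond counting noise (45.0% of all tested genes did) and 4 were above the trend (1.42% of all). The 4 calls became 5 with the DESeq2 trend, 2 without WT 1, 1 without WT 2 and 2 without WT 3. The 4 were Enpp2, described above, Cldn11, the claudin of myelin tight junctions, at 217, 99.0 and 202 CPM (edgeR, adjusted p = 6.95e-05), Myrf, the regulator of myelin genes, at 50.2, 26.0 and 47.1 CPM (adjusted p = 0.0305), and Apod, a lipid carrier, at 268, 148 and 174 CPM (adjusted p = 0.0239). Without Enpp2 the list summed to 11421, 8663 and 13449 CPM, 1.55-fold higher in WT 3 than in WT 2. Mbp and Mobp, both of compact myelin, had adjusted p-values of 0.795 and 0.366 against the trend, and Mobp stood at 377, 290 and 473 CPM. Precursor markers did not share the order, with sums over 15 genes of 915, 935 and 854 CPM and 0 above the trend by edgeR and 0 with the DESeq2 trend. Pdgfra, the receptor that defines these cells, stood at 63.3, 46.1 and 48.1 CPM.

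Region and layer markers of forebrain neurons differed between the libraries at a few genes. The 15 excitatory markers summed to 7354, 7038 and 8021 CPM with 2 above the trend (1.42% of all tested genes were). These were Slc17a6 and Cux2, a factor of upper cortical layers, at 20.2, 33.0 and 12.7 CPM (edgeR, adjusted p = 0.0113). The calls were 1 without WT 2 and 0 without WT 3. Slc17a7, the vesicular glutamate transporter of cortex, stood at 1205, 1042 and 1284 CPM. Of 13 hippocampal markers, 4 were above the trend, against 1 with the DESeq2 trend, 1 without WT 1, 2 without WT 2 and 0 without WT 3. Wfs1, which encodes wolframin, was highest in WT 2, at 94.0, 148 and 48.3 CPM (adjusted p = 1.23e-08). Fibcd1 stood at 162, 112 and 89.1 CPM, and Spink8 and Dsp were lowest in WT 2, at 9.40 and 18.4 CPM. The sum of the hippocampal list was nonetheless even, at 1207, 1103 and 1181 CPM. Of 13 striatal markers tested, 2 were above the trend, against 1 with the DESeq2 trend and 0 without WT 2 or without WT 3. Six3, a transcription factor, was highest in WT 1, at 3.39, 0.36 and 0.51 CPM (edgeR, adjusted p = 0.0132), and entered the test through WT 1.

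Some called genes outside the lists were chosen after their values were seen. Tshz2 and Necab1, expressed in subsets of cortical neurons, were highest in WT 2, at 77.9, 206 and 73.6 CPM and at 125, 258 and 85.9 CPM, with edgeR adjusted p-values of 2.16e-11 and 5.44e-10. The transcription factor Mef2c stood at 224, 317 and 158 CPM. Hpca, a calcium sensor abundant in hippocampus, was lowest in WT 2, at 1455, 777 and 1791 CPM (adjusted p = 0.00723). Rbm3 and Cirbp, RNA-binding proteins induced by cold, were lowest in WT 2 as well, at 267, 120 and 223 CPM and at 110.4, 54.2 and 78.0 CPM.

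Among inhibitory neuron, microglial, astrocyte and endothelial markers, 2 genes in all were above the trend, as were 1.42% of all tested genes. The 15 GABAergic markers summed to 1218, 1302 and 1217 CPM. None was above the trend by edgeR or with the DESeq2 trend, while 11 varied beyond counting noise (45.0% of all tested genes did). Gad1, which makes GABA, stood at 286, 318 and 290 CPM, and Sst, the peptide somatostatin, at 181, 190 and 194 CPM. The 25 microglial markers summed to 2254, 2464 and 2448 CPM with 0 above the trend by either trend. Cst3, a protease inhibitor, gave most of that sum at 1438, 1640 and 1611 CPM. Aif1, a calcium-binding protein of these cells, stood at 7.92, 8.83 and 9.94 CPM. Tlr2, an innate immune receptor, was near the limit of detection, at 1.98, 0.50 and 0.93 CPM. Among astrocyte markers Gfap, an intermediate filament, stood at 449, 476 and 607 CPM, and 1 of 26 was above the trend. That was Agt, angiotensinogen, at 82.5, 29.4 and 40.1 CPM (edgeR, adjusted p = 4.98e-07), and it was not called without WT 1. The 19 endothelial markers summed to 482, 407 and 351 CPM, with Cldn5, of the blood-brain barrier, above the trend at 38.8, 25.1 and 16.3 CPM. The list had 0 calls with the DESeq2 trend, without WT 1 or without WT 3.

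Of the lists for other regions, the cerebellar one summed to 717, 683 and 542 CPM, the striatal one to 481, 460 and 412 CPM and the olfactory bulb one to 309, 255 and 372 CPM. These lists hold genes that other brain regions also express. Itpr1, an intracellular calcium channel, had a mean of 372 CPM and Calb1, a calcium buffer, of 179 CPM in the cerebellar list, and Adcy5, an adenylyl cyclase, of 108 CPM in the striatal list. Some markers with narrower expression were low. Gabra6, of cerebellar granule cells, had 0, 1 and 0 counts, and Pcp2, of Purkinje cells, stood at 0, 0.14 and 0.17 CPM. The striatal dopamine receptor genes Drd1 and Drd2 stood at 2.54, 5.91 and 3.48 CPM and at 0.85, 0.85 and 0.93 CPM. The 12 hypothalamic neuropeptides summed to 13.5, 9.97 and 9.60 CPM. Th, the enzyme of dopamine synthesis, stood at 0.85, 1.14 and 0.93 CPM. The monoamine neuron list summed to 70.0, 114 and 68.6 CPM, most of it Nr4a2, which cortical neurons also express and which is induced by activity. The blood cell list summed to 93.2, 71.2 and 82.9 CPM, and Bpgm alone, a red cell enzyme also made in other tissues, gave 84.6, 68.9 and 79.8 CPM of it. The globin gene Hba-a1 stood at 2.07, 0.071 and 0.25 CPM.

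Immediate early genes, which neuronal activity induces, had their largest sum in WT 2, and 1 of them passed the test. The 26 genes summed to 1129, 1446 and 1285 CPM. Of them, 15 were highest in WT 2 (33.0% of all tested genes were) and 18 were lowest in WT 1. Nr4a2 was the 1 above the trend (1.42% of all tested genes were), at 42.9, 96.1 and 46.2 CPM (edgeR, adjusted p = 2.4e-05). It was not called without WT 2. Arc, of synaptic plasticity, stood at 57.3, 97.8 and 93.3 CPM (adjusted p = 0.0635). Egr1, a zinc-finger factor, stood at 83.3, 124 and 95.5 CPM.

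Glucocorticoid-responsive genes were highest in WT 3 for 13 of 14 (32.4% of all tested genes were). Of the 14, 3 were above the trend (1.42% of all). The sums were 1342, 1272 and 1829 CPM. Sgk1, a kinase, stood at 92.5, 72.1 and 158 CPM (edgeR, adjusted p = 8.47e-05), and Tsc22d3, also called Gilz, at 76.2, 114 and 156 CPM (adjusted p = 0.00151). Plin4, of lipid droplets, stood at 12.3, 2.92 and 13.1 CPM, low in WT 2 and near-equal in the others. Fkbp5, a chaperone of the receptor, stood at 68.98, 61.17 and 95.80 CPM and did not pass. Arrdc2, named for its spread, was also highest in WT 3, at 10.1, 8.90 and 26.7 CPM (adjusted p = 0.000397). The calls were 2 without WT 1 or WT 2 and 1 without WT 3, and without WT 3 Arrdc2 was not.

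Ribosomal protein genes mostly had their lowest level in WT 1. Of 81 tested, 78 were lowest in WT 1, for which the share of all tested genes was not counted. Of the 81, 75 varied beyond counting noise, against 45.0% of all genes. Above the trend were 0 by edgeR and 0 with the DESeq2 trend. Their sums were 30811, 37039 and 36574 CPM. Nuclear-encoded respiratory chain genes showed a smaller difference, with 67 of 93 lowest in WT 1 and sums of 17004, 18195 and 18267 CPM. Heat shock genes summed to 6985, 7316 and 6981 CPM with 0 of 14 above the trend by edgeR. The nuclear-retained RNA Malat1 stood at 509, 262 and 484 CPM (edgeR, adjusted p = 0.0138). Of 13 tested RNAs on a list of non-coding RNAs that also holds Norad, Malat1 was the 1 above the trend (1.42% of all tested genes were). It was not called without WT 2. Small nucleolar and spliceosomal RNAs had no count in any library for 103 of 121.

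Of a list of synuclein family genes and their partners, none had spread called above the trend: 0 of 14 by edgeR and 0 with the DESeq2 trend, while 9 varied beyond counting noise, against 45.0% of all tested genes. Sncb, beta-synuclein, stood at 333, 408 and 368 CPM, and Sncg, of peripheral and midbrain neurons, at 3.58, 2.78 and 3.74 CPM. Uchl1, a deubiquitinase abundant in neurons, stood at 531, 533 and 614 CPM.

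Some genes above the trend are near copies of another gene, between which reads can be divided. Eif3j1 had 3, 581 and 3 counts and its near-identical partner Eif3j2 had 788, 581 and 865, the same count for both in WT 2. Their sum was 74.5, 82.8 and 73.7 CPM. The pseudogene Atp6v0c-ps2 had 0, 1 and 891 counts, and with Atp6v0c, its parent, the sum was 706, 627 and 755 CPM. The biological coefficients of variation of Eif3j1 and Atp6v0c-ps2 were 170% and 173%. In WT 2 the counts of Eif3j1 came with a lower count of Eif3j2, while Atp6v0c showed no such drop in WT 3, at 706, 627 and 679 CPM. Calls of near copies are uncertain.

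How reads were assigned to the transcripts of a gene is not stated. Among 3156 multi-transcript genes with at least 100 counts in each library, the row with the most counts was the same in all 3 libraries for 2476 (78.5%). A transcript with at least 80% of its gene's counts in every library, here called dominant, was found for 1062 (33.7%). The largest range in share of any row of a gene between libraries had a median of 12.7 percentage points. This median was 15.5, 8.85 and 4.96 points in genes of under 1000, of 1000 to 10000 and of over 10000 counts per library. In 321 genes a row had 0 counts in 1 library and at least 100 in another. Rows of multi-transcript genes were above the dispersion trend in 8.14% of 8850 rows tested, against 0.247% of 9708 rows of single-transcript genes.

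Single rows swung more than the totals of their genes. The Camk2a row NM_001286809 had 0, 0 and 7018 counts while the gene stayed within 1.07-fold. The Psap row NM_001146120 had 2150, 715 and 0 counts while the gene, which encodes prosaposin, stayed within 1.33-fold. The Apoe row NM_001305844 had 875, 277 and 4606 counts, and Apoe, the main lipid carrier of brain, stood at 2287, 2234 and 2376 CPM.

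For 3 genes with a known choice between coding stretches, the stretch that sets the rows apart is shown. The shares are those of the counts as assigned to rows. Whether the 3′ end reads covered these stretches was not tested, so the shares are not a measure of exon choice. Coordinates and sequences are from the GRCm38 genome and GENCODE M21, 5′ to 3′ on the plus strand, where the 3 genes lie. Where both rows hold a stretch of equal length, capitals mark the bases that differ between them. Snap25 has a pair of exons that replace each other. Row NM_011428, with chr2:136770064-136770166, held 89.8% ± 3.2 of the counts and row NM_001291056, with chr2:136769750-136769852, held 10.2% (SD, n = 3). The stretches are 103 bases long and differ at 31, and the 3′ ends of the rows lie 1077 bases apart.
Snap25 NM_011428: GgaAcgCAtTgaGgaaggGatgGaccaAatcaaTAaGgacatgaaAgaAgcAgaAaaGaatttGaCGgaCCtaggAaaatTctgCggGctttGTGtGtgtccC
Snap25 NM_001291056: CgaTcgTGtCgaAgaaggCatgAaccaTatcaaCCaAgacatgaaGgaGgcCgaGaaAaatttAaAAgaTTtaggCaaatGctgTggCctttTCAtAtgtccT

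Pkm, pyruvate kinase of glycolysis, also has a pair of exons that replace each other, giving the forms known as M1, of adult neurons and muscle, and M2. Row NM_001253883, with chr9:59675031-59675185, held 86.7% ± 0.12 of the counts and row NM_011099, with chr9:59675570-59675724, held 13.3% (SD, n = 3). The stretches are 155 bases long and differ at 64, and the 3′ ends lie 186 bases apart.
Pkm NM_001253883: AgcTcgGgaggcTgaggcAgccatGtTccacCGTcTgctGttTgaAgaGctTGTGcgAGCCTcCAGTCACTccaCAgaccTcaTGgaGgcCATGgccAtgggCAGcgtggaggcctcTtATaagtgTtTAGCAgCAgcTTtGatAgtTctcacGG
Pkm NM_011099: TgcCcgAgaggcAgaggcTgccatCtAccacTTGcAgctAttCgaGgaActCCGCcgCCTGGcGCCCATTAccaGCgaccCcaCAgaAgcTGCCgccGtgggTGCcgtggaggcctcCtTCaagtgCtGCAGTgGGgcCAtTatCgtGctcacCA

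Clta, a clathrin light chain, is known for exons included in neurons. Of its 5 rows, NM_001080385 held 62.0% ± 1.9 of the counts (SD, n = 3), and it holds the 36-base stretch at chr4:44031400-44031435 that NM_016760, with 12.4% ± 1.6, lacks. Both rows end at the same base.
Clta NM_001080385 only: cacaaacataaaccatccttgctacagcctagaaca

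Among other named genes, the leading row of Kif5a held 99.99% of counts and that of App, the amyloid precursor, 96.2% ± 0.25 (row NM_007471, SD, n = 3). The leading row of Dlg4, a scaffold of the postsynaptic density, held 88.4% ± 0.47, and that of Mapt, which encodes tau, 84.2% ± 0.77. Mbp, with 8 rows, had 75.9% ± 2.1 in NM_001025259 and 13.8% ± 0.87 in NM_001025255. Ntrk2, the receptor of brain-derived neurotrophic factor, had 62.6% ± 0.82 in NM_008745, which has the shorter coding sequence, of 1428 bases, and 37.4% ± 0.79 in NM_001025074, with 2463 bases. Gpm6a, a neuronal membrane glycoprotein, had no dominant row: NM_001253754 held 45.2%, 53.9% and 62.4% and NM_153581 held 54.6%, 46.1% and 37.5%. Its level was nevertheless even, at 2121, 2056 and 2079 CPM.

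**Figure D5:**
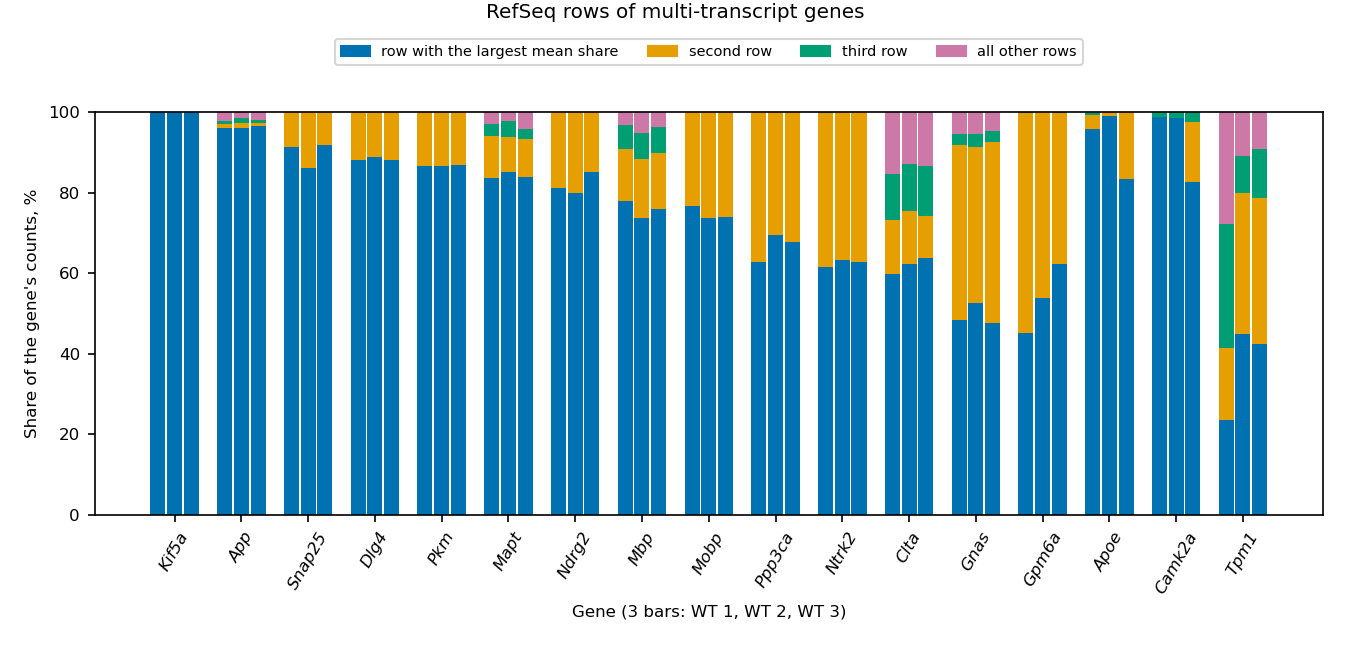
Share of each gene's counts (percent) held by its RefSeq rows, with 1 stacked bar for each library; the colours rank rows by their mean share. The bars of Pkm are alike in the 3 libraries, while those of Gpm6a, Apoe, Camk2a and Tpm1 differ between libraries.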

How the data were processed

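The authors deposited 1 table of read counts per RefSeq transcript, and the 3 WT columns hold whole-number counts, as seen in the values. The 6 TG columns hold log2-like decimals as deposited, and they were not used. Reads were aligned with Bowtie2 to mm10, per the submitters' processing notes; the program that counted, and how it split reads between transcripts, is not given in the sources used here. Rows were named from a RefSeq table of assembly GRCm38.p6 (32394 matched, 905 kept as identifiers, 0.300% to 0.309% of counts), summed per gene and divided by library totals (CPM). Lengths came from GENCODE M21. Spread was tested with edgeR 4.0.16 in R 4.3.3 on TMM-scaled totals (factors 1.01, 1.00 and 0.989), for genes of at least 1 CPM on average, as the deviance of an intercept-only fit against chi-square with 2 degrees of freedom, at dispersion 0 and at the trended dispersion. With 3 libraries this has few degrees of freedom. Counts of 13829 genes were simulated at the fitted trended dispersion. With 200 genes changed 2-fold in 1 library, the test above the trend recovered 48% and called 2 unchanged genes. At 4-fold it recovered 93% and called 1. Every unchanged simulated gene lay on the trend, while real genes scatter around it. These calls therefore do not measure false calls in the real libraries. Alternatives were other scaling (DESeq2 1.42.0), filters, row choice and leaving out each library.

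The named genes are a standing set, the 25 most abundant, the 3 most abundant of each list, the 20 with the largest spread above the trend (mean of at least 10 CPM), the 5 with the smallest (at least 300 CPM) and 12 abundant multi-transcript genes with a fixed set beside them. Other list members are named for their role or their call. The ribosomal list also holds the stalk genes and Rpsa. Some genes that these rules name are not reported here. Members and lists were chosen with earlier results of these data known. Summed values of a list rest mostly on its abundant members.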

Additional observations from a re-analysis of the deposited data

How the results depend on the processing

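The count of genes above counting noise, 6222, stayed within 1.5 times under the other scalings, filters and row choices, and ranged from 3728 to 4531 when 1 library was left out. The count above the trend, 197, was 134 with the DESeq2 trend (131 shared), 117 at a mean of at least 10 CPM, 395 with the highest row in place of the sum, 102 to 111 when 1 library was left out, and 744 when RefSeq rows were tested in place of genes, an alternative chosen after seeing the data. With 2 libraries each gene has fewer degrees of freedom. The mean share of the 10 most abundant genes, 4.86%, was 4.65% with the highest row and 5.64% after division by length. Genes with a dominant transcript, 1062, numbered 676 at a share of 90% and 2268 at 50%. The highest row in place of the sum lowered the mean oligodendrocyte sum from 11573 to 9069 CPM and the neuron sum from 18387 to 15970 CPM. Leaving out WT 1 lowered the mean choroid sum from 1710 to 182 CPM. No paired analysis was possible because only 1 group was used. Depth limits the low markers: at 1 to 10 CPM the median coefficient of variation was 19.7%.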
